A study of Homo sapiens with 16 samples.

Results

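The genes described here fold, export and degrade proteins in the endoplasmic reticulum (ER), together with the sensors that set their transcription. They were taken from a list of 35 names matched to the gene identifiers of a deposited count table of 60671 genes. VIMP is an older symbol of SELENOS, so the list held 34 genes, and each of the 34 was found and passed the filter on low counts in HEK293 cells, an established human line from embryonic kidney. By role there were 4 sensors or their transcription factor (ATF6, ERN1, EIF2AK3 and XBP1), 17 chaperones and folding enzymes, 10 genes of ER-associated degradation and 3 genes of translocation, transport or the ER membrane.

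The study introduced 6 cloned transcripts of LINC01016, which encodes a human long non-coding RNA active in testis, into HEK293 cells to compare what each does. The groups were cells given 1 of the transcripts (T1, T2, CU1, CU2, CU1ENC, CU1ENU) cloned in pcDNA3.0, a mammalian expression plasmid, then cells given the empty vector, and last the parental cells, with 2 libraries in each of the 8 groups. The labels' protocol gives 5 micrograms of plasmid, a lipid reagent, 60 mm plates and RNA taken at 48 hours, so each of the 14 transfected libraries is from transient transfection of 1 line. Whether parental cells also received the lipid reagent is not stated, so reagent and plasmid cannot be told apart in any comparison with them.

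Proteins that enter the secretory pathway fold in the ER lumen with the help of HSPA5 (BiP), HSP90B1 (GRP94), the lectin chaperones calnexin and calreticulin, and protein disulfide isomerases. When unfolded proteins build up, the sensors IRE1 (ERN1), PERK (EIF2AK3) and ATF6 respond. IRE1 splices XBP1 mRNA, PERK phosphorylates eIF2 and so favours translation of ATF4, and ATF6 is cut to release a transcription factor. XBP1 and ATF6 bind ER stress elements in the promoters of chaperone and degradation genes, and proteins that fail to fold are retrotranslocated and ubiquitinated by the SYVN1 (HRD1) complex. Counts per gene do not separate spliced from unspliced XBP1 mRNA, and they measure neither sensor phosphorylation nor ATF6 cleavage.

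The ER stress elements are shown because they are the known binding letters of the pathway in these genes' promoters. RefSeq promoters on GRCh38.p14, each 300 bases (250 before and 50 after the annotated gene start), were held for 31 of the 34 genes. PDIA3, DERL1 and SEC24D had no entry. Letters were searched on both strands. The ER stress element (ERSE), the letters CCAAT and CCACG with 9 bases between them, was found in 7 of 31 (22.6%), against 0.0769% of all 35116 promoters in the table. ERSE-II, ATTGG and CCACG with 1 base between them, was found in 3 of 31 (9.68%), against 0.0541% of all promoters. Together 10 of 31 (32.3%) held either, against 0.131% of all promoters. The core of the unfolded protein response element, TGACGTGG, was found in DNAJC10 and in HYOU1, where it overlapped an ERSE-II (6.45%, against 0.729%). The ATF4-type element TGATGCAA was found in HERPUD1 (3.23%, against 0.866%). A match is a run of letters and was not tested as a bound site. HSPA5 and HERPUD1 are textbook carriers of these elements. The 34 genes were listed for their part in ER folding and degradation, so shares above those of all promoters are background and no result of these data. Absence of a match says only that the letters are not in this window.

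The 3 promoters below belong to genes that differed most between transfected and parental cells, each written on its gene's own strand. Of 9 genes with a promoter that passed as higher in empty vector than in parental cells, 4 held an ERSE or ERSE-II. Over all members this was 10 of 31, and the carriers HSP90B1, HYOU1, SDF2L1, ERO1B, CALR and CANX did not pass in that comparison. Whether the elements go with the difference was not tested. The 3 promoters are those of HSPA5 (chr9:125241294-125241593, minus strand), XBP1 (chr22:28800520-28800819, minus strand) and HERPUD1 (chr16:56931892-56932191, plus strand). Capitals mark the ERSE in HSPA5 and XBP1. In HERPUD1 they mark the ATF4-type element, read on the opposite strand, and then the ERSE-II.
HSPA5 promoter: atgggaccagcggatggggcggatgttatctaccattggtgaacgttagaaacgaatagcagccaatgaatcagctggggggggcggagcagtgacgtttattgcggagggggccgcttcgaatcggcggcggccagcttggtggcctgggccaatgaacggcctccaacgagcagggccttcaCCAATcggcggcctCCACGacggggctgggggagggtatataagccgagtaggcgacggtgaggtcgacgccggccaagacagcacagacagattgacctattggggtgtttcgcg
XBP1 promoter: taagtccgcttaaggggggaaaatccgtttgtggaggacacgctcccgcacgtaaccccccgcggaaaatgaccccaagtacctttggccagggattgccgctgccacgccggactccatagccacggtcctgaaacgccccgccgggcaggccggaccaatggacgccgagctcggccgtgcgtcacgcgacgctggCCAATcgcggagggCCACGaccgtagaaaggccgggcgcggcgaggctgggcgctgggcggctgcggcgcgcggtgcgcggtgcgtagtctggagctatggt
HERPUD1 promoter: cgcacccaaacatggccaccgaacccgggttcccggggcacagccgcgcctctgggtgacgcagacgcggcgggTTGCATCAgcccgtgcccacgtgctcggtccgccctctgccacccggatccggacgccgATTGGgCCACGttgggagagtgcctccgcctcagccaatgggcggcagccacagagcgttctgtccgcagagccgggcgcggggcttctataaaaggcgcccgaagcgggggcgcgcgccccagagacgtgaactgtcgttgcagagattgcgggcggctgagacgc

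The other 7 genes with an ERSE or ERSE-II held the following runs, each written in the direction of the element, with the invariant letters in capitals and the spacer in lower case. HSP90B1 held an ERSE on each strand, and HYOU1 held the same ERSE-II letters at 2 places.
HSP90B1: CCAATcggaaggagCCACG
HSP90B1: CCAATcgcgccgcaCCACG
HYOU1: ATTGGaCCACG
SDF2L1: ATTGGtCCACG
CRELD2: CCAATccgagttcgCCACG
ERO1B: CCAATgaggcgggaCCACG
CALR: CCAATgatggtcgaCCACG
CANX: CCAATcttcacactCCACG

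Sequencing depth was even, with totals between 15040770 and 17255935 counts per library. LINC01016 itself had 40405 to 192244 counts in isoform libraries, 0 to 1 in empty vector libraries and 0 in both parental libraries. HEK293 markers were present throughout (PAX2 at 32 to 142 counts, NEFL at 1638 to 2697). The leukocyte gene PTPRC (0 to 2 counts), the hepatocyte gene TTR (0 to 2), KRT5 (0 to 6) and KRT14 (0 to 5) were at or near 0. Other markers on the same lists were not, with KRT17 at 1668 to 12268 counts, SFN at 97 to 206 and the leukocyte gene CD14 at 18 to 72. Of the fibroblast genes, COL1A1 had 580 to 814 counts, COL3A1 14 to 227, LUM 40 to 144 and DCN 0 to 10. Values below are counts relative to the library total, scaled by trimmed mean factors (CPM, per 1000000 counts), given for replicate 2 and then replicate 1 where both are printed. Differences are log2 fold changes with their standard error (SE), and a gene passed the test at an adjusted p under 0.05 in edgeR's quasi-likelihood F-test over 19316 genes. The labels do not call the replicates separate cultures, and the p-values therefore cover no more than library-to-library spread, which may be technical. With 2 libraries against 2 the smallest p of an exact permutation test is 0.333, and calls depend on spread estimated over all genes.

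Per length, the most abundant of these mRNAs were those of 3 chaperones. CALR (calreticulin, a calcium-binding lectin chaperone) averaged 1418 TPM (length-scaled counts per 1000000) in transfected cells and 1155 TPM in parental cells. HSP90B1 averaged 1247 TPM in transfected cells and 940 TPM in parental cells. HSPA5, the ER member of the HSP70 family, averaged 983 TPM in transfected cells and 496 TPM in parental cells. All 3 averaged higher in transfected cells. The lowest was the sensor ERN1, at 8.42 TPM in transfected cells and 7.41 TPM in parental cells. The 34 genes together took 0.772% to 0.914% of counts in isoform libraries (median 0.834%), 0.851% and 0.770% in empty vector libraries, and 0.692% and 0.633% in parental libraries. Chaperones made up most of this, with 6323 to 8037 CPM in isoform libraries, 7204 and 6377 CPM in empty vector libraries, and 5719 and 5200 CPM in parental libraries. Degradation genes summed to 801 to 917 CPM in isoform libraries, 848 and 792 CPM in empty vector libraries, and 819 and 764 CPM in parental libraries. The sums of chaperones and of the sensors with XBP1 did not overlap between transfected and parental libraries, whereas those of degradation genes did. OS9, the degradation gene with the most counts, weighs heavily in that last sum. It had 284 and 242 CPM in parental libraries, and 246 and 216 CPM in empty vector libraries. The overlap of the degradation sums may therefore not hold for the other degradation genes, whose sum was not computed without OS9.

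**Figure D1:**
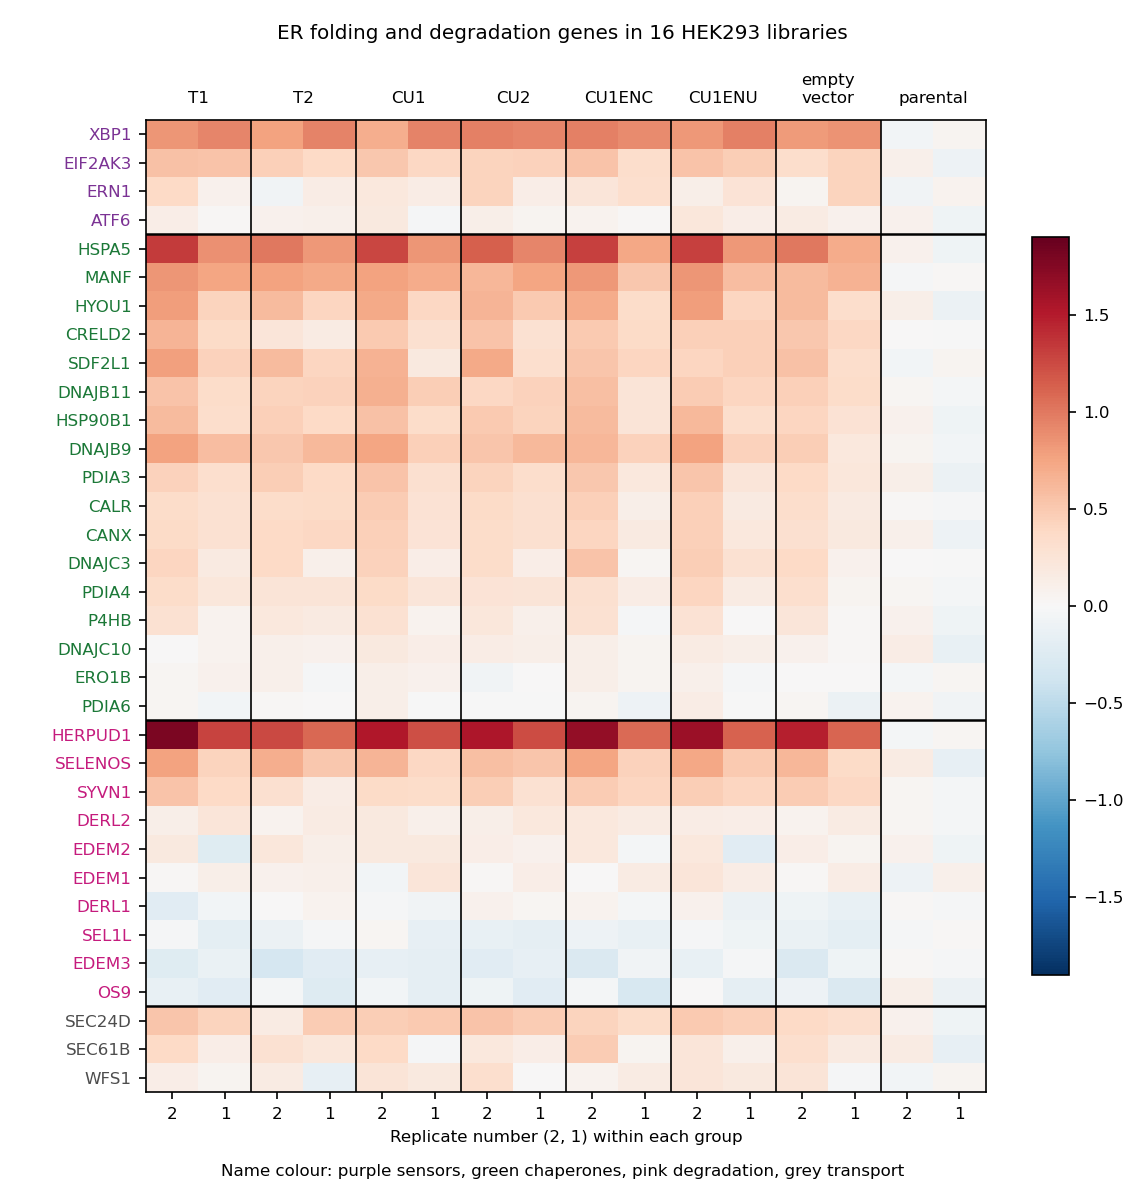
Rows are the 34 genes and columns the 16 libraries, grouped by plasmid with replicate 2 left of replicate 1 and parental cells at the right. Colour is log2 CPM minus the mean log2 CPM of the 2 parental libraries. HERPUD1, HSPA5 and XBP1 are the darkest rows across all 14 transfected libraries, while PDIA6, ERO1B and most degradation genes stay pale.

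Empty vector against parental cells asks how these genes differ when a plasmid is carried. Of the 34 genes, 10 rose and 0 fell, against 9.41% of all tested genes that rose and 6.6% that fell. They were EIF2AK3 and XBP1 among the 4 sensors or their transcription factor, and HSPA5, MANF, CRELD2 and DNAJB11 among 17 chaperones. The rest were HERPUD1, SYVN1 and SELENOS among 10 degradation genes, and SEC24D among 3 others. The median log2 fold change was 0.25 over the 34 genes and 0.01 over all tested genes, and 29 of 34 values were positive. For the 0 that fell, edgeR at an unadjusted p under 0.05 also gave 0 of the 34, and DESeq2 gave 10 higher and 0 lower. Within same-numbered libraries, the median log2 difference over the 34 genes was 0.27 in replicate 2 and 0.26 in replicate 1. These are 1 library against 1, and the same medians over all tested genes were not computed.

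Same-numbered libraries deviated together from their group means, so the replicate number also entered a second fit as a block. With this block 20 of the 34 genes rose and 1 fell, against 18.4% and 15.9% of all tested genes (34.3% in either direction). The 10 further rises were of HSP90B1, HYOU1, DNAJB9, DNAJC3, SDF2L1, PDIA3, PDIA4, CALR, CANX and SEC61B, and the fall was of OS9.

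Of the sensors EIF2AK3 rose, and XBP1, which is grouped with them but is not a sensor, rose too. XBP1, the transcription factor made after IRE1 splicing, lies on chromosome 22 (28794555 to 28800597, minus strand, GRCh38.p13). It had 100.9 to 122 CPM in isoform libraries (median 119), 110.0 and 112 CPM in empty vector libraries, and 60.6 and 64.5 CPM in parental libraries. Each transfected library lay above both parental libraries, and empty vector cells were 1.78-fold higher (log2 fold change 0.83 ± 0.10 SE, edgeR adjusted p = 0.000128). EIF2AK3, which encodes PERK, had 52.8 to 62.0 CPM in isoform libraries (median 57.7), 52.7 and 56.5 CPM in empty vector libraries, and 44.8 and 39.3 CPM in parental libraries. It did not overlap between transfected and parental libraries, with a log2 fold change of 0.38 ± 0.09 in empty vector cells (edgeR adjusted p = 0.0151).

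The other two sensors did not pass. ERN1, which encodes IRE1, had 19.1 to 27.0 CPM in isoform libraries (median 22.6), 20.9 and 26.8 CPM in empty vector libraries, and 19.1 and 21.0 CPM in parental libraries, so that the groups overlapped (0.25 ± 0.15, edgeR adjusted p = 0.292). ATF6 had 68.8 to 80.4 CPM in isoform libraries (median 73.9), 77.6 and 73.3 CPM in empty vector libraries, and 73.4 and 65.9 CPM in parental libraries, again with overlap (0.12 ± 0.09, edgeR adjusted p = 0.414). Neither passed with the replicate block (edgeR adjusted p = 0.146 for ERN1 and 0.191 for ATF6).

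Among the chaperones 4 rose, HSPA5 by the most. HSPA5 (chromosome 9, 125234853 to 125241343, minus strand) had 808 to 1209 CPM in isoform libraries (median 943), 967 and 786 CPM in empty vector libraries, and 513 and 455 CPM in parental libraries. The lowest transfected library was above both parental ones, and empty vector cells were 1.81-fold higher (0.86 ± 0.23, edgeR adjusted p = 0.0237; adjusted p = 6.86e-07 with the replicate block). MANF, a secreted ER-resident factor with chaperone activity, lies on chromosome 3 (51385291 to 51389397, plus strand). It had 88.7 to 111 CPM in isoform libraries (median 105), 94.9 and 98.2 CPM in empty vector libraries, and 61.6 and 63.2 CPM in parental libraries. Again no transfected library reached down to the parental ones (0.63 ± 0.11, edgeR adjusted p = 0.00173).

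CRELD2, an ER protein with disulfide isomerase activity, had 69.5 to 97.4 CPM in isoform libraries (median 82.6), 89.0 and 81.6 CPM in empty vector libraries, and 62.6 and 62.1 CPM in parental libraries. DNAJB11 (ERdj3), a co-chaperone of HSPA5, had 84.4 to 113 CPM in isoform libraries (median 95.8), 97.0 and 90.4 CPM in empty vector libraries, and 72.9 and 69.1 CPM in parental libraries. In both genes every transfected library lay above both parental libraries. The log2 fold change in empty vector cells was 0.45 ± 0.11 for CRELD2 (edgeR adjusted p = 0.0140) and 0.40 ± 0.11 for DNAJB11 (0.0207).

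Most other chaperones showed the same order of libraries. Both empty vector libraries were above both parental libraries for 13 of 17 chaperones and below for 0 of 17. Over all 34 genes the counts were 21 above and 3 below, against 30.1% and 27.8% of all tested genes. HYOU1, a nucleotide exchange factor for HSPA5, had a log2 fold change of 0.47 ± 0.18 in empty vector cells (edgeR adjusted p = 0.0847) and passed with the replicate block (2.04e-07). HSP90B1 (0.35 ± 0.14, 0.0985), SDF2L1, a partner of the DNAJB11 and HSPA5 complex (0.45 ± 0.17, 0.0836), and DNAJB9 (ERdj4), a co-chaperone that holds IRE1 in check (0.34 ± 0.14, 0.116), likewise passed with the block and not without it.

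Several enzymes of disulfide formation did not pass. PDIA6, a disulfide isomerase, had 359 to 424 CPM in isoform libraries (median 384), 393 and 354 CPM in empty vector libraries, and 403 and 365 CPM in parental libraries. Transfected and parental libraries overlapped (-0.04 ± 0.09, edgeR adjusted p = 0.817). ERO1B, an oxidase that recharges disulfide isomerases (0.01 ± 0.08, 0.9499), DNAJC10 (ERdj5), a disulfide reductase (0.05 ± 0.09, 0.772), and P4HB, the archetypal disulfide isomerase (0.12 ± 0.13, 0.579), did not pass with or without the block. PDIA3 (0.29 ± 0.13, 0.149) and PDIA4 (0.19 ± 0.11, 0.249), 2 further isomerases, passed with the block and not without it.

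**Figure D2:**
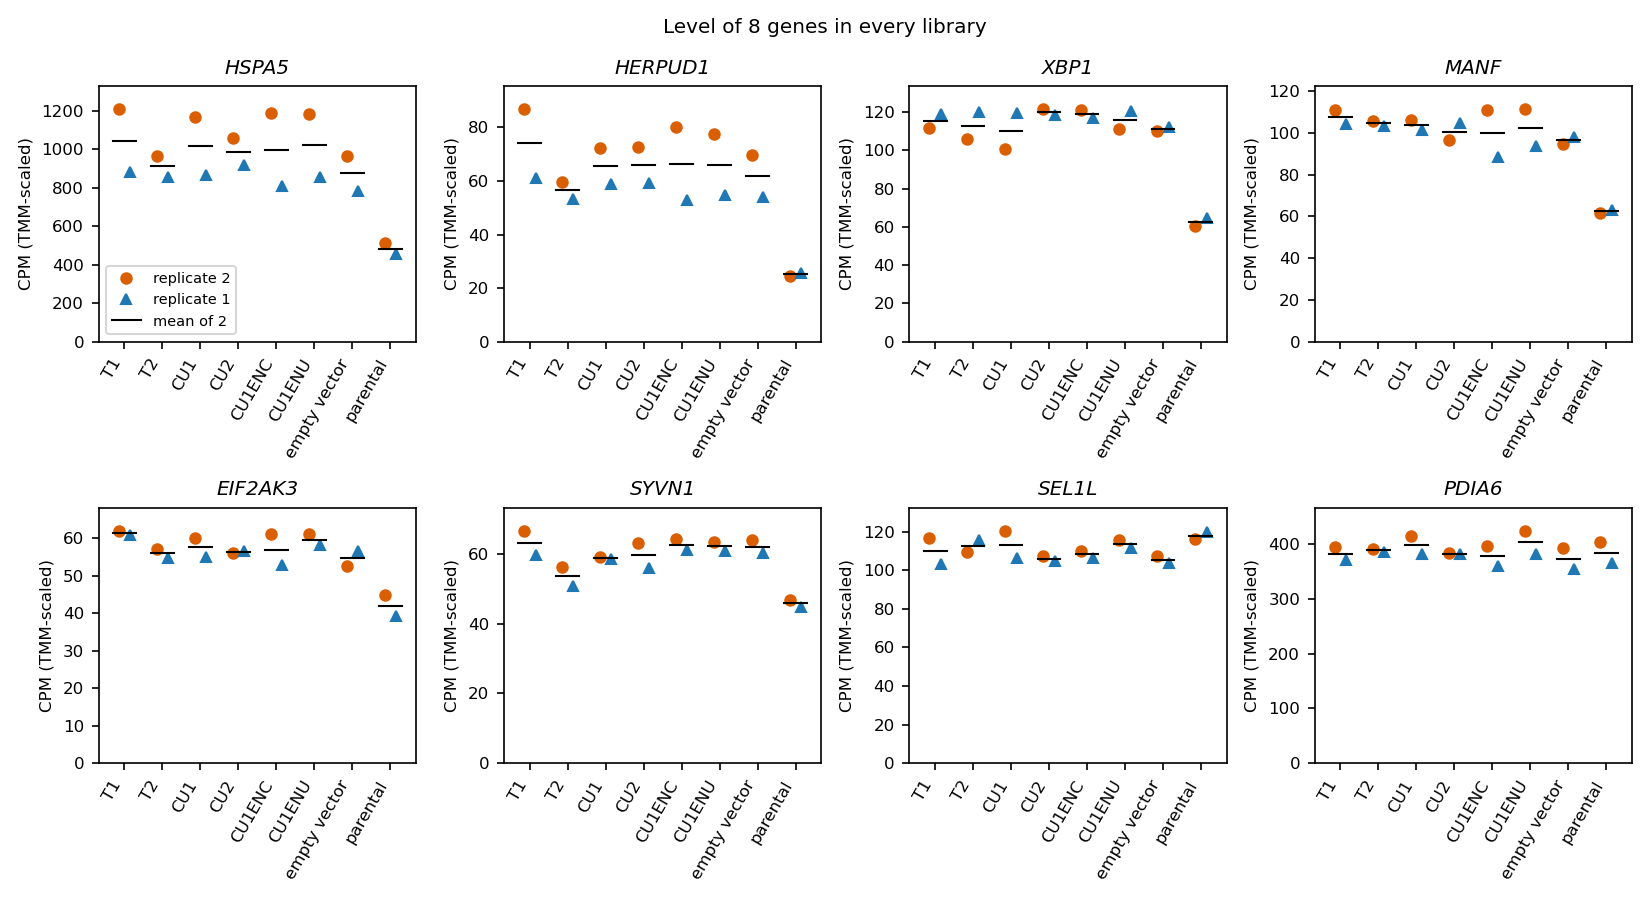
CPM of 8 genes in every library on axes that start at 0, with replicate 2 as circles, replicate 1 as triangles and the mean of 2 as a bar, and parental cells at the right. HSPA5, HERPUD1, XBP1, MANF, EIF2AK3 and SYVN1 are above both parental libraries in all 14 transfected libraries, while SEL1L and PDIA6 overlap with parental cells.

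The degradation genes split. HERPUD1, a membrane protein that recruits partners to the SYVN1 complex, lies on chromosome 16 (56932142 to 56944864, plus strand). It had 52.9 to 86.8 CPM in isoform libraries (median 60.5), 69.9 and 53.8 CPM in empty vector libraries, and 24.4 and 25.8 CPM in parental libraries. No transfected library came near the parental ones. Empty vector cells were 2.46-fold higher (1.30 ± 0.25, edgeR adjusted p = 0.00495), and the log2 difference was 1.52 within replicate 2 and 1.06 within replicate 1. SYVN1, the ubiquitin ligase HRD1, had 50.8 to 66.7 CPM in isoform libraries (median 60.3), 64.0 and 60.3 CPM in empty vector libraries, and 46.9 and 44.9 CPM in parental libraries. SELENOS, a selenoprotein that links the degradation complex to the ATPase VCP, had 74.1 to 95.9 CPM in isoform libraries (median 82.2), 87.1 and 72.2 CPM in empty vector libraries, and 62.7 and 50.4 CPM in parental libraries. Neither SYVN1 (0.44 ± 0.09, edgeR adjusted p = 0.00521) nor SELENOS (0.49 ± 0.16, 0.0451) overlapped between transfected and parental libraries.

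Other parts of the same machinery did not rise in empty vector cells. SEL1L, the adaptor that stabilises SYVN1, had 103 to 121 CPM in isoform libraries (median 110), 108 and 104 CPM in empty vector libraries, and 116 and 120 CPM in parental libraries. EDEM3, which trims mannose from misfolded glycoproteins, had 48.0 to 58.7 CPM in isoform libraries (median 53.5), 49.6 and 56.7 CPM in empty vector libraries, and 61.1 and 58.7 CPM in parental libraries. OS9, a lectin that delivers trimmed glycoproteins to SEL1L, had 213 to 264 CPM in isoform libraries (median 236), 246 and 216 CPM in empty vector libraries, and 284 and 242 CPM in parental libraries. For EDEM3 all 14 transfected libraries were below both parental ones, though the nearest equalled the lower parental library to the digits printed, while 12 of 14 were below for SEL1L and 8 of 14 for OS9.

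None of the 3 passed in empty vector cells, with log2 fold changes of -0.16 ± 0.09 for SEL1L (edgeR adjusted p = 0.226), -0.17 ± 0.10 for EDEM3 (0.245) and -0.19 ± 0.12 for OS9 (0.313). With the replicate block OS9 fell (-0.19 ± 0.06, adjusted p = 0.0101), and SEL1L (0.0543) and EDEM3 (0.0727) did not pass. DERL1 and DERL2, membrane proteins of the retrotranslocation complex, had log2 fold changes of -0.12 ± 0.09 and 0.11 ± 0.08. EDEM1 and EDEM2, relatives of EDEM3, had values of 0.08 ± 0.10 and 0.09 ± 0.15, and none of these 4 passed with or without the block.

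Of the 3 remaining genes SEC24D passed. SEC24D, a cargo-binding subunit of the COPII coat, had 25.0 to 32.8 CPM in isoform libraries (median 31.1), 29.2 and 27.9 CPM in empty vector libraries, and 23.8 and 21.1 CPM in parental libraries, with no overlap (0.35 ± 0.11, edgeR adjusted p = 0.0488). SEC61B, a subunit of the translocon, had 72.5 to 103 CPM in isoform libraries (median 85.3), 91.8 and 82.7 CPM in empty vector libraries, and 82.0 and 66.5 CPM in parental libraries (0.23 ± 0.16, 0.343; 0.0163 with the replicate block). WFS1 (wolframin), an ER membrane protein, had 23.9 to 33.4 CPM in isoform libraries (median 29.7), 31.6 and 26.3 CPM in empty vector libraries, and 25.6 and 27.7 CPM in parental libraries (0.12 ± 0.13, 0.597). Isoform libraries overlapped parental ones for SEC61B and WFS1.

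The calls in empty vector cells rested on 2 libraries against 2. XBP1, MANF and HERPUD1 passed whichever of the 16 libraries was left out. Without parental replicate 1 these 3 were the only rises. Without parental replicate 2 the number was 5, without empty vector replicate 1 it was 6, and without empty vector replicate 2 it was 4. HSPA5 lost its call without parental replicate 2, parental replicate 1 or empty vector replicate 2 (highest adjusted p = 0.157), and DNAJB11 without any of the 4 (0.156). CRELD2 lost it without empty vector replicate 2 or either parental library (0.112), EIF2AK3 without parental replicate 1 or empty vector replicate 1 (0.181), and SYVN1 without empty vector replicate 2 or parental replicate 1 (0.0637). SELENOS, whose log2 fold change was 0.33 without parental replicate 1, lost its call in 11 of the 16 omissions, and SEC24D in 14. Where 1 library of a group was left, it was assumed to vary like the other groups.

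Setting the mean of all 7 transfected groups against parental cells brought 14 libraries to bear, with the same 2 parental libraries. Of the 34 genes, 18 rose and 0 fell, against 15.4% of all tested genes that rose and 14.3% that fell (29.7% in either direction). They were the 10 above and 8 more chaperones, namely HSP90B1, HYOU1, DNAJB9, SDF2L1, PDIA3, PDIA4, CALR and CANX, which brought chaperones to 12 of 17. For the 0 that fell, DESeq2 also gave 0, and edgeR at an unadjusted p under 0.05 gave 1, EDEM3 (-0.17 ± 0.07, adjusted p = 0.0821). The median log2 fold change was 0.30 over the 34 genes and -0.0038 over all tested genes.

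HERPUD1 was 2.59-fold higher in transfected cells (1.37 ± 0.21, edgeR adjusted p = 0.000571), HSPA5 2.02-fold (1.01 ± 0.18, 0.00168), XBP1 1.84-fold (0.88 ± 0.08, 5.71e-06) and MANF 1.64-fold (0.71 ± 0.09, 5.70e-05). CALR (0.32 ± 0.09, 0.0190) and CANX, the membrane-bound lectin chaperone calnexin (0.32 ± 0.09, 0.0129), rose less. All 14 transfected libraries lay above both parental ones for 20 of 34 genes, against 16.8% of all tested genes, and below for EDEM3 alone, against 14.9%. With the replicate block 22 genes rose and 2 fell, against 23.1% and 22.5% of all tested genes (45.7% in either direction). The block added rises of DNAJC3, a co-chaperone of HSPA5, P4HB, DERL2 and SEC61B, and falls of EDEM3 (adjusted p = 0.0111) and OS9 (0.00517). Without parental replicate 1 the calls of HSP90B1, HYOU1, DNAJB9, SDF2L1, CRELD2, PDIA3, PDIA4, CALR, CANX, SELENOS and SEC24D were lost. In that fit fewer of all tested genes rose as well. Without parental replicate 2 the calls of SDF2L1, PDIA4 and CALR were lost.

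**Figure D3:**
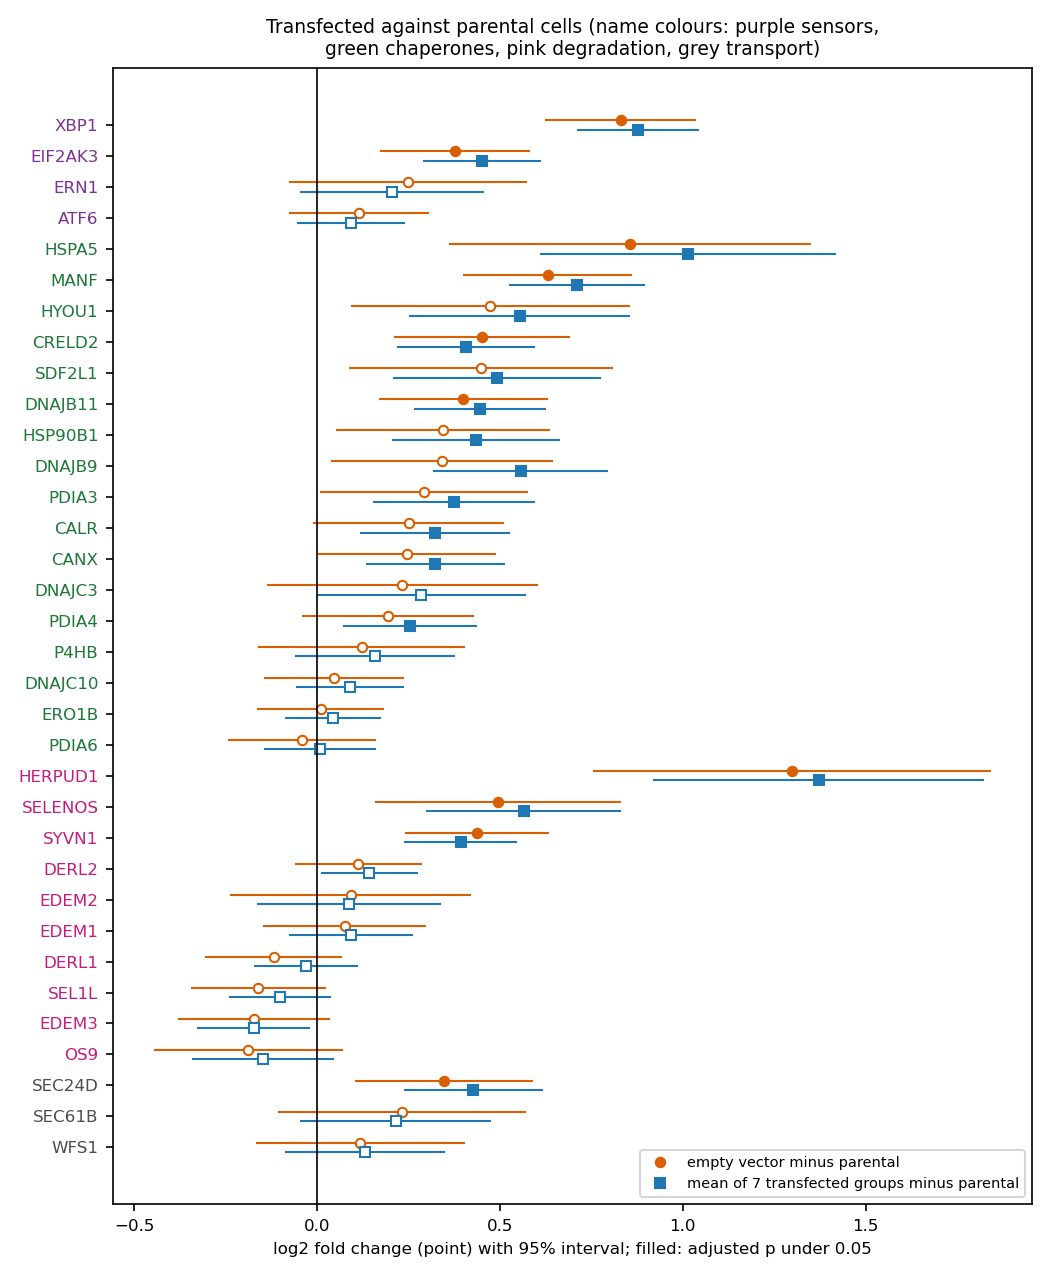
Log2 fold changes of the 34 genes with 95% intervals, for empty vector minus parental cells (circles) and for the mean of 7 transfected groups minus parental cells (squares), filled where the adjusted p was under 0.05. Intervals are narrower for the mean of 7 groups, in which 18 genes are filled against 10 for empty vector alone, and 4 degradation genes lie left of 0 in both.

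Related genes outside the 34 were called at about the rate of all tested genes. In empty vector against parental cells, 2 of 24 tested genes on a list of other ER folding factors rose (TXNDC11, 0.49 ± 0.12, and SERP1, 0.33 ± 0.11) and 2 fell (CLGN and KDELR3). On a list of other degradation factors 2 of 25 rose (AUP1 and HM13) and 3 fell (ERLIN2, MARCHF6 and MAN1B1). On a list of translocation and transport genes 3 of 30 rose (SEC24A, SEC31A and SRPRA) and 1 fell (SSR2). Among 12 other genes linked to stress sensing, processing or signalling 2 fell (BAX and MBTPS1). Over all tested genes 9.41% rose and 6.6% fell. Their medians were 0.0032, 0.04, 0.10 and -0.07, beside 0.01 for all tested genes.

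The PERK-ATF4 arm, which acts through translation of ATF4, stood higher in empty vector cells. Of 15 genes on its list 11 rose and 1 (VLDLR) fell in empty vector cells, against 9.41% of all tested genes that rose and 6.6% that fell, with a median log2 fold change of 0.91. ATF3, a stress-induced transcription factor, was 5.15-fold higher (2.36 ± 0.15, edgeR adjusted p = 1.71e-06). DDIT3, which encodes CHOP, was 2.47-fold higher (1.30 ± 0.10, 3.79e-06). These genes are also induced by stresses other than those of the ER. Summed over the list, the level was 1918 and 1781 CPM in empty vector libraries and 980 and 947 CPM in parental libraries.

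Genes outside ER folding also differed in level between transfected and parental libraries. Summed over 20 interferon-stimulated genes the level was 1058 and 2257 CPM in empty vector libraries and 343 and 273 CPM in parental libraries. KRT17 had 8516 to 10020 counts in empty vector libraries and 1668 to 2172 in parental ones, whereas KRT5 and KRT14 stayed near 0 in all libraries. The 2 tested keratinocyte markers, KRT17 and SFN, summed to 649 and 531 CPM in empty vector libraries and 142 and 108 CPM in parental libraries. Their part in the differences of the ER genes was not tested. In bulk RNA, a change in the share of cells that took up plasmid and a change in mRNA per cell cannot be told apart.

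The 6 LINC01016 isoforms against empty vector ask whether these genes differ between cells given a transcript and cells given the empty plasmid. None of the 34 genes passed for the mean of 6 isoforms or for T1, T2, CU1, CU1ENC or CU1ENU, each against 0.0104% of all tested genes, nor for CU2 or in an F-test over the 7 transfected groups, each against 0.00518%. The count was 0 in edgeR with and without the replicate block and in DESeq2. At an unadjusted p under 0.05 edgeR gave 3 of 204 values, 1 for T1 and 2 for T2, and 22 of 204 with the block. Those shares were 1.47% without the block, against 1.41% over all tested genes, and 10.8% with it, against 4.02%. For the mean of 6 isoforms that threshold gave 1 gene without the block, DNAJB9 (0.25 ± 0.11), and 4 with it, against 1.5% and 4.03% of all tested genes. For the F-test it gave 0 without the block and 2 with it, against 0.502% and 3.28%. The lowest adjusted p among the 204 was 1.00, and 0.501 with the block. Each of the 204 intervals at 95% lay within a 2-fold change and 192 lay within a 1.5-fold change. The widest reached 1.72-fold, for HERPUD1.

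The 3 values at an unadjusted p under 0.05 were of small size. DNAJB9 had 46.2 and 40.8 CPM in T1 libraries, against 37.9 and 31.2 CPM in empty vector libraries (0.33 ± 0.14, edgeR adjusted p = 1.00), and its value was positive for all 6 isoforms. CRELD2 had 72.8 and 69.5 CPM in T2 libraries, against 89.0 and 81.6 CPM in empty vector libraries (-0.26 ± 0.11, adjusted p = 1.00). SYVN1 had 56.4 and 50.8 CPM in T2 libraries, against 64.0 and 60.3 CPM in empty vector libraries (-0.21 ± 0.09, adjusted p = 1.00). None of the differences passed. Libraries did not overlap in any of these 3 pairs, but the pairs were picked for their low p, so this adds no support.

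HERPUD1 and HSPA5, which differed most between transfected and parental cells, passed for no isoform against empty vector. HERPUD1 averaged 74.0 CPM in T1 cells, 66.5 in CU1ENC, 66.1 in CU1ENU, 66.04 in CU2, 65.5 in CU1 and 56.6 in T2, and 61.9 CPM in empty vector cells. The SDs within these groups ran from 4.49 to 19.3 CPM (n = 2 each) and include the difference between replicates 2 and 1. In replicate 2 the isoform libraries had 59.8 to 86.8 CPM, against 69.9 CPM in the empty vector library, and in replicate 1 they had 52.9 to 61.3 CPM, against 53.8 CPM. The empty vector library stood inside both ranges, below 5 of 6 isoforms in replicate 2 and 4 of 6 in replicate 1. HSPA5 averaged 1046 CPM in T1 cells, 1021 in CU1ENU, 1016 in CU1, 998 in CU1ENC, 989 in CU2 and 912 in T2, and 876 CPM in empty vector cells. Its SDs ran from 78.9 to 268 CPM. In replicate 2 the isoform libraries had 968 to 1209 CPM, against 967 CPM in the empty vector library, and in replicate 1 they had 808 to 919 CPM, against 786 CPM. All 6 isoform libraries were above the empty vector library of the same number in both replicates. The highest log2 fold change of HSPA5, in T1, was 0.26 ± 0.22 without the replicate block and 0.25 ± 0.08 with it, and its edgeR adjusted p was 1.00 in both fits. Of the 204 values 165 were positive, but the 6 comparisons share the same 2 empty vector libraries, so these signs are not independent.

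**Figure D4:**
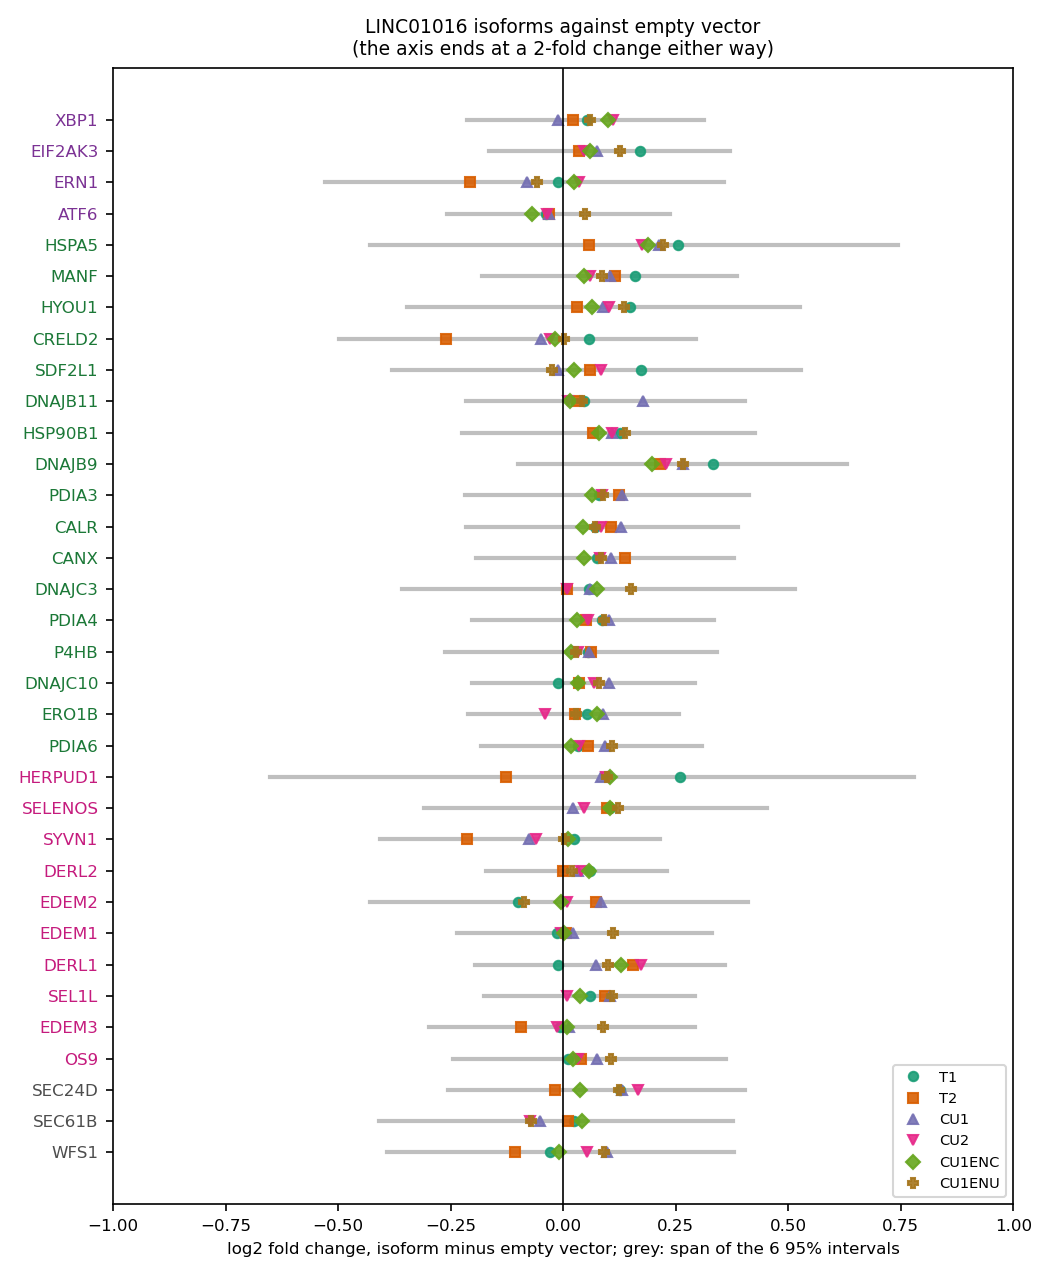
Log2 fold changes of the 34 genes for each of the 6 isoforms minus empty vector (symbols), with the span of the 6 95% intervals in grey and an axis that ends at a 2-fold change. All 204 points lie between -0.26 and 0.33, and no grey bar reaches either end of the axis.

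These genes also differed by replicate number. With group in the model, 21 of the 34 genes were higher in replicate 2 and 2 were lower, against 18.0% of all tested genes that were higher and 17.9% that were lower (35.9% in either direction). The higher genes included 14 of 17 chaperones, 5 of 10 degradation genes, ATF6 and SEC61B. The 2 lower ones were XBP1 (-0.08 ± 0.03, edgeR adjusted p = 0.0473) and EDEM1 (-0.10 ± 0.04, 0.0311), and neither was called by DESeq2, which gave 19 higher and 0 lower. Each lost its call in 12 of the 16 omissions of 1 library, and ATF6 in 9. The median log2 difference was 0.12 over the 34 genes and -0.01 over all tested genes. For 12 of 34 genes replicate 2 was above replicate 1 in all 8 groups, against 11.5% of all tested genes.

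HSPA5 and HERPUD1 had the largest replicate differences. For HSPA5 the ratio of replicate 2 to replicate 1 ran from 1.13 to 1.47 in the 7 transfected groups (median 1.35) and was 1.13 in parental cells (0.35 ± 0.04, edgeR adjusted p = 5.77e-06). For HERPUD1 it ran from 1.12 to 1.52 in transfected groups (median 1.30), but was 0.947 in parental cells (0.35 ± 0.06, 0.000176). HYOU1 followed, with ratios of 1.11 to 1.31 in transfected groups and 1.16 in parental cells (0.28 ± 0.03, 6.21e-09). DNAJC3 had ratios of 1.13 to 1.42 in transfected groups and 1.00 in parental cells (0.25 ± 0.04, 1.79e-05), and SELENOS 1.03 to 1.27 and 1.24 (0.24 ± 0.03, 1.26e-06). Whether transfected groups differ from parental cells in this ratio was not tested.

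The interferon-stimulated genes ran the other way. All 20 on the list were lower in replicate 2 (median log2 difference -1.97), and their sum in transfected libraries was 486 to 2254 CPM in replicate 2 and 2257 to 4987 CPM in replicate 1. The labels do not say what the replicate number marks, and the part of these genes in the replicate difference of the ER genes was not tested.

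**Figure D5:**
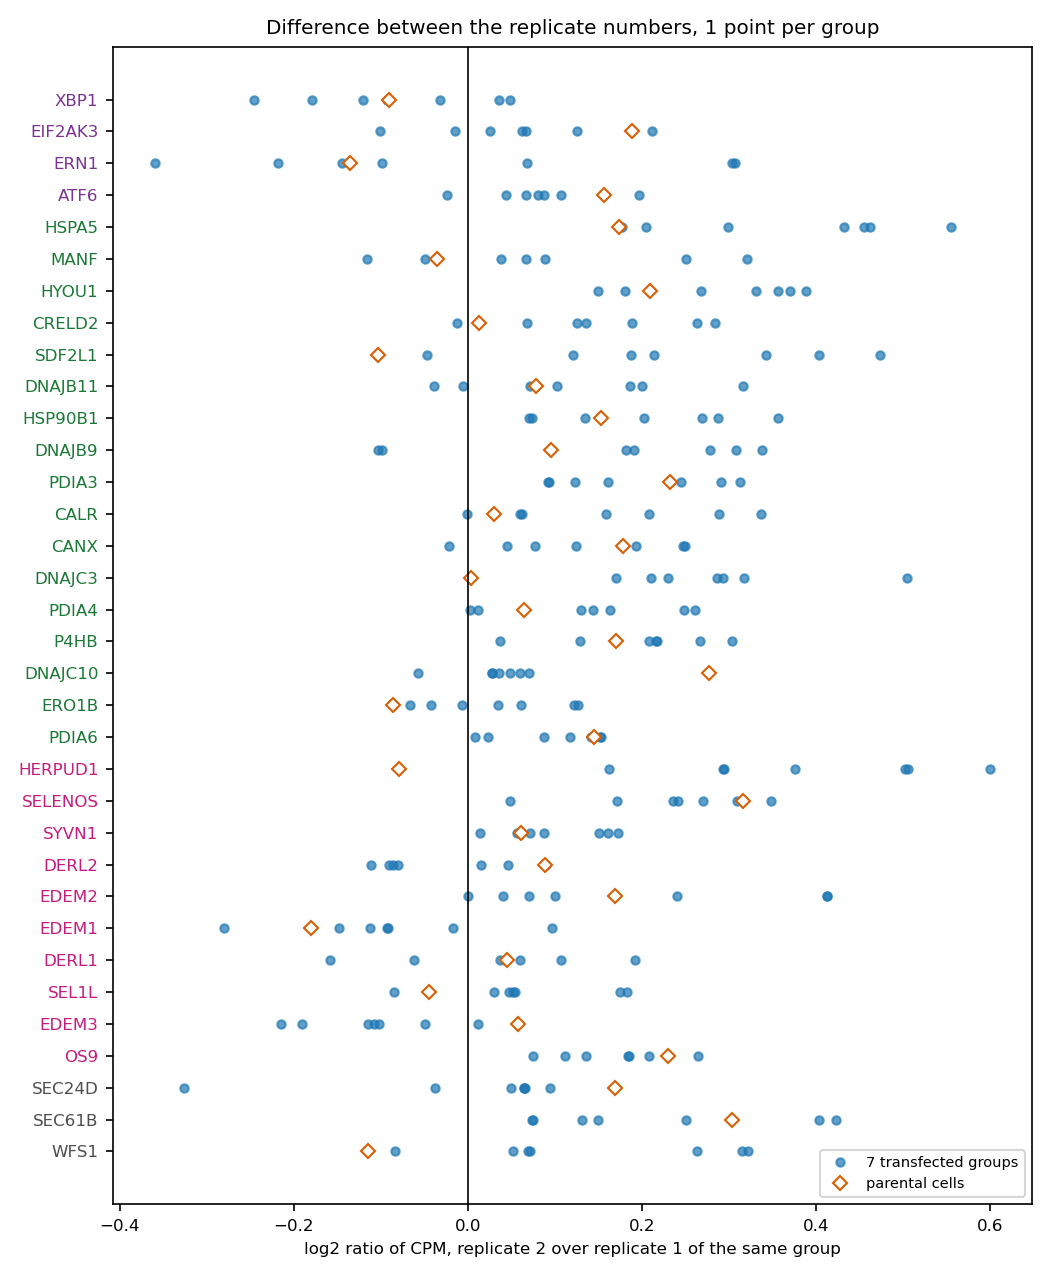
Log2 ratio of CPM in replicate 2 over replicate 1 within each group, with 7 transfected groups as filled points and parental cells as open diamonds, for each of the 34 genes. For HSPA5, HYOU1, PDIA3, P4HB and SELENOS every point lies right of 0, and for HERPUD1 the parental diamond is left of 0 while the 7 transfected groups are right of it.

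Near-identical copies took few reads. PDIA3P1, a pseudogene of PDIA3, held 19 to 42 counts per library (at most 0.6995% of the PDIA3 count), and pseudogenes of HSP90B1, HSPA5 and XBP1 held at most 17 counts. The treatment of multiply mapped reads is not given in the sources used here, so reads could have been divided between these genes and their copies.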

How the data were processed

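RNA from 16 HEK293 libraries was measured as read counts per gene. The authors deposited whole-number counts with no normalization, made with featureCounts 2.0.1 with strand option 2 over exons of Ensembl release 101, per the file headers. Per the submitters' processing notes, HISAT2 and DESeq2 were used on GRCh38.p13. The sources used here do not give alignment settings.

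Groups and replicate numbers came from the sample titles. Genes with low counts were left out (edgeR 4.0.16 in R 4.3.3, filterByExpr, minimum count 10, minimum total 15), which kept 19316 of 60671. TMM factors were 0.974 to 1.03. Quasi-likelihood F-tests used 8 group means over 16 libraries (8 residual degrees of freedom), with Benjamini-Hochberg adjustment over all genes tested at 0.05. The SE was taken as the size of the log2 fold change over the root of F. TPM used the exonic length in the table. Replicates of a group differed by more than sampling noise (chi-square per degree of freedom 6.76 to 18.9), so each library was kept.

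Each group has a replicate 1 and a replicate 2 in the labels, and same-numbered libraries deviated together in 28 of 28 pairs of groups (r from 0.143 to 0.414, median 0.232). The pairing comes from the data, not the labels. With that number as a block, 7 residual degrees of freedom remained. Other alternatives were RLE scaling, library totals, no filter, a minimum count of 50, DESeq2 1.42.0, only the groups compared, only transfected libraries, and leaving out each library. Scripts were tested on simulated data.

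Members, gene lists, roles and comparisons were chosen with earlier results of these data known. Every member may be named. Values per library are given for the sensors and XBP1, and for the 3 members of lowest p in each direction of each role, HSPA5 added. From each other list at most 4 called genes each way are named.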

Additional observations from a re-analysis of the deposited data

How the results depend on the processing

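The block for the replicate number raised the count of genes higher in empty vector than in parental cells to 20, against 10 without it, and gave 1 lower, against 0. For the mean of 7 transfected groups it gave 2 lower, against 0, and it changed no call among the isoform comparisons. Genes lower in replicate 2 than in replicate 1, of which there were 2 (XBP1 and EDEM1), numbered 3 with library totals or a minimum count of 50, which added EDEM3. They numbered 1 with RLE scaling (EDEM1), 1 with the 14 transfected libraries only (EDEM3, with XBP1 and EDEM1 lost), and 0 without a low-count filter or with DESeq2. Leaving out 1 library at a time gave 3 to 10 genes higher in empty vector cells, 7 to 19 higher in transfected cells, and 0 to 1 lower in replicate 2. The cause was not tested. In the 2 comparisons with parental cells, RLE scaling and library totals shifted the median log2 difference of all genes by -0.0163 to 0.00309.

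Values near 0 changed sign, none of them called. In empty vector cells ERO1B had -0.0060 without a filter and -0.00040 with only the groups compared. In the mean of 7 transfected groups PDIA6 had -0.0085 with library totals and -0.00026 without a filter. Between replicates ERO1B had -0.014 and SEC24D -0.014 with library totals, DERL2 0.010 without a filter, and SEC24D -0.0059 with transfected libraries only. When 1 library was left out at a time, the log2 fold change in empty vector against parental cells ran from -0.11 to 0.18 for DNAJC10, -0.13 to 0.038 for PDIA6, -0.044 to 0.034 for ERO1B, -0.023 to 0.15 for EDEM1, -0.0097 to 0.17 for EDEM2 and -0.018 to 0.25 for WFS1. In the mean of 7 transfected groups it ran from -0.057 to 0.23 for DNAJC10, -0.078 to 0.075 for PDIA6, -0.0072 to 0.071 for ERO1B, -0.0025 to 0.17 for EDEM1 and -0.0097 to 0.17 for EDEM2. HERPUD1 in T1 against empty vector ran from -0.014 to 0.49. Replicate 2 against replicate 1 ran from -0.080 to 0.017 for ERN1 and -0.00088 to 0.070 for SEC24D.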
